A study of Mus musculus with 12 samples.

Results

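The 8 genes described here are Gmds, Tbc1d5, Atg10, Msra, Arl15, Babam2, Prkca and Cmss1. All are long genes whose footprints or RNA fell steeply after cisplatin (Cis) in KPC cells. They are 8 of 15803 transcripts with a read in any library and were found by symbol in every table. They were chosen as long genes and by their measured changes at 6 h and 21 h in these same libraries. Their spans and falls are therefore given as a description and not tested. KPC is a mouse pancreatic ductal adenocarcinoma line from tumors of mice with a mutant Trp53 allele and Pdx1-Cre, and all groups share its genotype. Cells received 20 μM Cis for 6 or 21 h, or PBS for a time that is not labelled, and were lysed with cycloheximide. Ribosome profiling, which sequences the RNA fragments that ribosomes protect (footprints), and RNA-seq each had 2 PBS libraries, 2 libraries of cells at 6 h and 2 at 21 h. The same PBS libraries were the control for both times, so the 6 h and 21 h changes are not independent of each other. Nothing says that the 2 libraries of a group came from separate cultures, and their spread may therefore be technical.

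An mRNA is made only after RNA polymerase II has crossed the whole gene, introns included, so the genomic span of a gene sets how much DNA must be transcribed for each copy. Cis binds DNA and forms adducts, mostly between neighbouring purines of a strand, and such adducts are known to stop RNA polymerase II until they are repaired. This is background on the drug, and transcription itself was not measured in these libraries. The 8 genes have unrelated jobs. Prkca encodes protein kinase C alpha, a kinase activated by calcium and diacylglycerol, and Arl15 encodes a small ARF-like GTPase that binds the CNNM magnesium transporters. Tbc1d5 acts on the GTPase Rab7 together with retromer, the coat that returns cargo from endosomes, and Atg10 is the enzyme that joins ATG12 to ATG5 in autophagy. Gmds makes the first intermediate of GDP-fucose from GDP-mannose, and Msra reduces oxidised methionine in proteins. Babam2 is a scaffold subunit of the BRCA1-A and BRISC deubiquitinase complexes, and Cmss1 is named for its likeness to a yeast protein of the small ribosomal subunit.

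Footprint libraries held 3375480 to 5204127 reads and RNA-seq libraries 1985344 to 2901692, of which Lars2, Tmem38b and Mettl26 took 51.8 to 56.6% and left 862476 to 1341584. The RNA values of the 8 genes therefore rest on few reads. The cells were checked against cell type markers. Epithelial keratins and the mesenchymal marker Vim were abundant, with 6 of 6 epithelial markers listed. The summed footprint level of the epithelial markers was 9101 to 9781 RPKM with PBS and 6697 to 6838 at 21 h. It came mostly from Krt8, Krt18 and Krt19, while Krt7 was low (mean 16.4 RPKM) and Epcam nearly absent (mean 1.05 RPKM). The other mesenchymal markers, Fn1 (mean 43.4 RPKM), Cdh2 (20.2) and Zeb1 (5.55), were far below Vim (3446) in footprints. Fibroblast markers (5 of 5 listed) stayed at or under 3.41 RPKM in sum, immune markers (2 of 3) at or under 5.40 and endothelial markers (2 of 2) at or under 0.666, and Cd3e and the 3 acinar markers were not listed in any library. In bulk samples such as these, fewer cells with an mRNA and less of it per cell cannot be told apart.

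The 8 genes were long on the genome but, by their median, not long as mRNAs. Long span was part of the choice, so nothing is read from their span ranks. The files give them as Gmds (ENSMUSG00000038372), Tbc1d5 (ENSMUSG00000023923), Atg10 (ENSMUSG00000021619), Msra (ENSMUSG00000054733), Arl15 (ENSMUSG00000042348), Babam2 (ENSMUSG00000052139), Prkca (ENSMUSG00000050965) and Cmss1 (ENSMUSG00000022748). By the RefSeq gene table (GRCm38.p6, used for length only), Gmds spans 519.2 kb, Tbc1d5 448.1 kb, Prkca 410.5 kb and Babam2 387.0 kb. Arl15 spans 363.0 kb, Msra 333.3 kb, Cmss1 304.9 kb and Atg10 289.4 kb. Among 10336 transcripts tested in footprints with a known span, they ranked between 42 and 161 from the longest, and their median span was 375.0 kb against 22.6 kb for all. Span covers every isoform of a gene in the table, and which start sites KPC cells use was not measured. The spliced transcripts showed no such excess. Their median length was 1786.5 bases against 2905 for all tested, and the median coding sequence was 972 bases against 1350. The transcript made up between 0.330% (Gmds) and 2.05% (Prkca) of the span, so nearly all of each span is absent from the spliced mRNA.

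Before treatment the 8 genes ranged from low to fairly abundant. With PBS, their footprint levels per length lay between percentiles 28.4 (Arl15) and 76.2 (Babam2) of all transcripts tested. Their RNA levels lay lower, between percentiles 4.66 (Arl15) and 63.5 (Babam2). The ratio of footprint to RNA RPKM with PBS ran from 4.14 (Cmss1) to 10.6 (Msra, which rests on 20 RNA reads). The RNA totals include the reads of Lars2, Tmem38b and Mettl26, which raises this ratio for every other gene. Over all transcripts tested, the median PBS level was 17.6 RPKM in footprints and 6.75 in RNA.

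Promoters are shown because these genes moved together and start from separate places in the genome. The RefSeq promoter table (GRCm38.p6, 250 bases before to 50 after a start) held 7 of the 8 genes, with 2 entries for Tbc1d5, and Msra had none. Windows were searched on both strands for the GC box GGGCGG. They were also searched for TATAAA on both strands and for the dinucleotide CG, of which each GC box holds 1. A GC box was found in 6 of 8 windows, against 64.1% of 10824 windows of tested genes, and TATAAA in 1 of 8 (Arl15, on the other strand), against 7.39%. The windows held a median of 35 CG, against 21 in those of tested genes (quartiles 13 and 29), but ranged from 1 in the inner Tbc1d5 window to 45 in Gmds. The promoters of the genes with the lowest log2 change at 21 h in footprints (Gmds, chr13:32338495-32338794 on the minus strand), the lowest in RNA (Babam2, chr5:31697800-31698099 on the plus strand) and the most reads (Prkca, chr11:108343839-108344138 on the minus strand) follow, with that of Cmss1 (chr16:57606818-57607117 on the minus strand), which kept the largest share of footprints at 21 h. Capitals mark the GC box on either strand, the sequences read 5′ to 3′ along the gene, and a match is a run of letters and not a measured site.
Gmds: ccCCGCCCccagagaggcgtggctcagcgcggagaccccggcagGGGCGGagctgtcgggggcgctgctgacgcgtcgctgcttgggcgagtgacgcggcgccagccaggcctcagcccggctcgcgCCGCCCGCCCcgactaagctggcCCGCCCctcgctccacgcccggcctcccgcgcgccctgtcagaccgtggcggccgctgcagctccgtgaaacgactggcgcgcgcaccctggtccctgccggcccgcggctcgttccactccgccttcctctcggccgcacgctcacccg
Babam2: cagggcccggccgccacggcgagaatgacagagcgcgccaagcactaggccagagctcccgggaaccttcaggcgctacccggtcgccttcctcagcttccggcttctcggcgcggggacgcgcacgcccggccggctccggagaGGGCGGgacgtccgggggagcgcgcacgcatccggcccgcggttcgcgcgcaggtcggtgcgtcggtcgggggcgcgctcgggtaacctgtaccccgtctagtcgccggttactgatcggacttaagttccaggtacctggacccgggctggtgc
Prkca: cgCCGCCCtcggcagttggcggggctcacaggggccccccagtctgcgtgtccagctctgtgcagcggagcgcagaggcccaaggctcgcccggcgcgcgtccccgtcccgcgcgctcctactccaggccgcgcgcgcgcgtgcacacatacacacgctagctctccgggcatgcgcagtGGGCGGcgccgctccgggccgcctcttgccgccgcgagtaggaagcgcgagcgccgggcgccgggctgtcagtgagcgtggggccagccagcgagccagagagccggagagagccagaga
Cmss1: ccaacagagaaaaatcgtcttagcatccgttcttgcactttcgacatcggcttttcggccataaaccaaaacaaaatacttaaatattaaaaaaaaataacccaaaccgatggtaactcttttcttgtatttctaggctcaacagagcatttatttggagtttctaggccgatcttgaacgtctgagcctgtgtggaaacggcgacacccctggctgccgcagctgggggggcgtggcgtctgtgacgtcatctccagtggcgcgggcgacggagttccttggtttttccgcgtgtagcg
Gmds held 1 GC box on the printed strand and 4 on the other, of which a pair overlap, Prkca held 1 on each strand and Babam2 1. Cmss1 held none and 21 CG, equal to the median of tested genes.

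**Figure D1:**
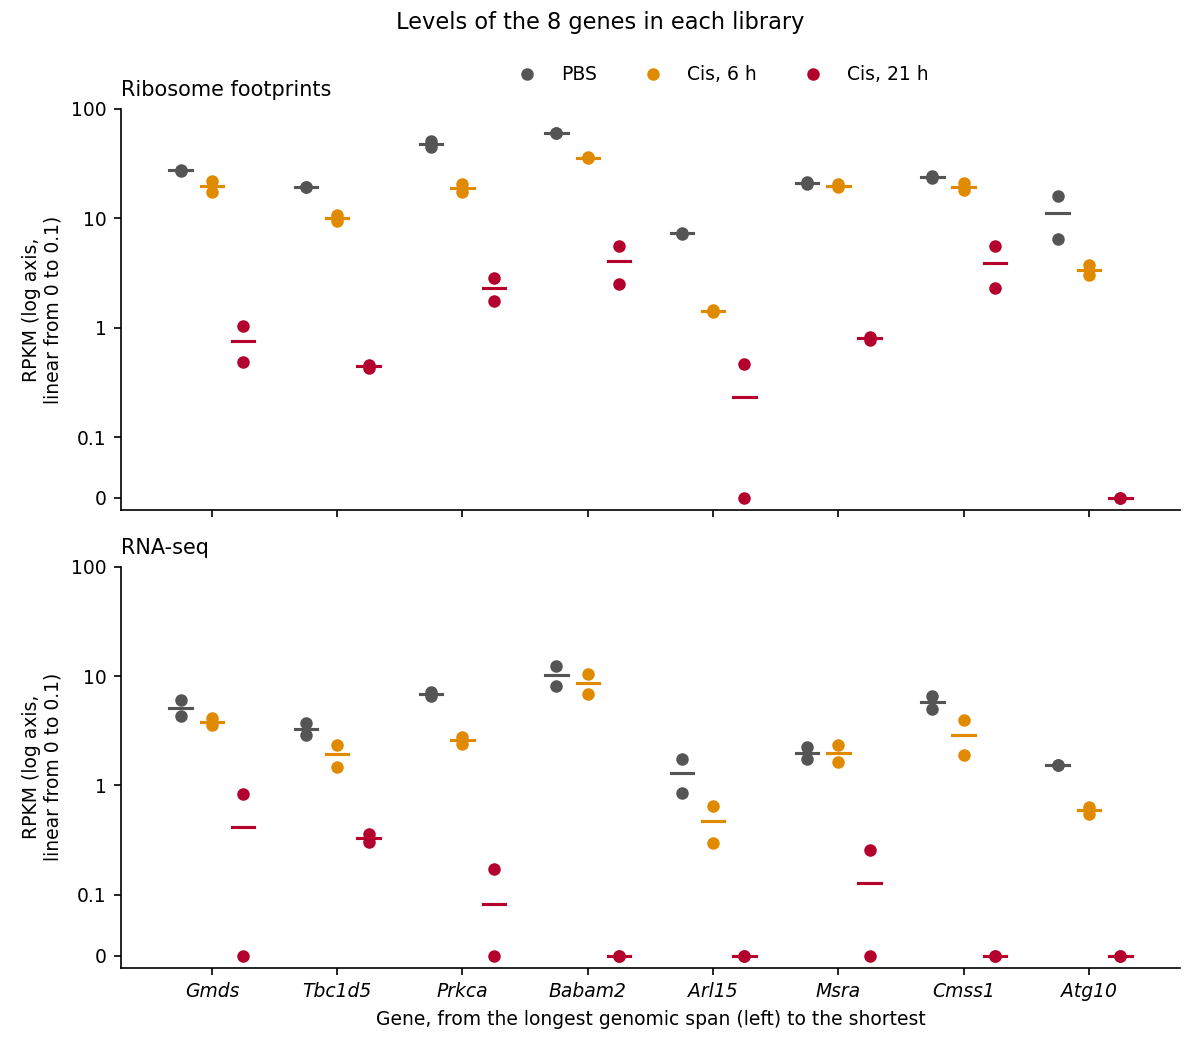
RPKM of each gene in each library, footprints above and RNA-seq below, on a log axis that is linear from 0 to 0.1. Points are the 2 libraries of a group and bars their mean. In footprints the 21 h libraries lie below the PBS libraries for all 8 genes, and in RNA-seq 4 genes sit at 0 in both 21 h libraries.

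Levels are given as reads, recovered as whole numbers from the RPKM values, with the share left of the PBS reads after scaling for depth. The 95% intervals of these shares are exact and cover counting error only. Changes on the log2 scale are of scaled RPKM + 0.5, which understates the fall of a transcript near 0. Where both libraries had 0 reads, the fall is a bound against 3 reads per library.

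The signalling genes come first. Prkca had the most reads of the 8, with 528 and 421 footprints with PBS, 165 and 139 at 6 h, and 13 and 20 at 21 h. Its footprint level went from 47.6 ± 3.91 RPKM (SD, n = 2) to 18.9 ± 2.11 and 2.29 ± 0.771. After 6 h, 38.8% of the PBS footprints were left (interval 34.0 to 44.2%), and after 21 h 4.66% (3.19 to 6.59%). Prkca RNA followed the same steps, with 135 and 173 reads with PBS, 40 and 54 at 6 h, and 0 and 3 at 21 h. Its RNA was at 40.0% of PBS at 6 h (31.4 to 50.6%) and at 1.12% at 21 h (0.229 to 3.30%). A level of 3 reads in each 21 h library would be 44.6-fold below PBS, the highest such value of the 8 genes. Prkca is the member for which footprints and RNA can be compared best, and at 6 h their shares differed by less than their counting intervals.

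Arl15 was low from the start and had the smallest share left at 6 h in footprints. It had 23 and 21 footprints with PBS, 4 and 3 at 6 h, and 0 and 1 at 21 h, or 7.29 ± 0.0992, 1.42 ± 0.0418 and 0.234 ± 0.331 RPKM (SD, n = 2). The share left was 19.3% at 6 h (7.32 to 43.1%) and 3.05% at 21 h (0.0755 to 17.9%), so these 2 intervals overlap. Arl15 RNA had 7 and 17 reads with PBS, 2 and 5 at 6 h, and 0 in both 21 h libraries. The RNA fall at 21 h was at least 3.38-fold, or at least 2.24-fold against the lower PBS library, and the RNA was too low to enter the fit.

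Of the genes of membrane traffic and autophagy, Tbc1d5 had 253 and 224 footprints with PBS, 111 and 90 at 6 h, and 4 and 4 at 21 h. The 21 h libraries held 0.444 ± 0.0169 RPKM (SD, n = 2) against 19.3 ± 0.157 with PBS. That left 51.0% at 6 h (43.1 to 60.3%) and 2.25% at 21 h (0.965 to 4.47%). Tbc1d5 RNA had the largest share left of the 8 at 21 h, with 34 and 51 reads with PBS, 14 and 26 at 6 h, and 4 and 3 at 21 h. Its RNA share at 21 h was 9.45% (3.69 to 20.3%), whose interval overlaps that of its footprints.

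Atg10 had no read at 21 h in either assay. Its footprints numbered 52 and 19 with PBS, 9 and 8 at 6 h, and 0 and 0 at 21 h, and the PBS libraries, at 15.8 and 6.44 RPKM, differed more than those of any other member in footprints. The 21 h level was at least 8.58-fold lower than PBS, or at least 5.06-fold lower than the lower PBS library. At 6 h, 29.0% of its footprints were left (16.01 to 49.8%). Atg10 RNA had 6 and 7 reads with PBS, 2 and 2 at 6 h, and 0 and 0 at 21 h. A count of 0 at 21 h allows up to 37.6% of the PBS level there. By the floor of 3 reads per library the RNA was at least 1.89-fold lower at 21 h, and 4 reads at 6 h against 13 leave an interval of 9.58 to 130.6%.

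Among the metabolic enzymes, Gmds had the lowest log2 change of all 10383 transcripts in footprints at 21 h with the pseudocount of 0.5 (-4.53), while with a pseudocount of 0.1 Atg10 (-6.68) lay below it (-5.11). It had 161 and 140 footprints with PBS, 114 and 66 at 6 h, and 2 and 4 at 21 h, which is 27.3 ± 0.571, 19.6 ± 3.01 and 0.756 ± 0.382 RPKM (SD, n = 2). At 6 h, 72.4% was left (59.9 to 87.4%), and at 21 h 2.67% (0.973 to 5.89%). Gmds RNA had 18 and 30 reads with PBS, 14 and 14 at 6 h, where the libraries overlapped those with PBS, and 0 and 3 at 21 h. The RNA share was 76.5% at 6 h (46.2 to 124.4%) and 7.17% at 21 h (1.43 to 22.2%).

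Msra was nearly level at 6 h and nearly gone at 21 h. Its footprints numbered 75 and 70 with PBS, 63 and 48 at 6 h, and 2 and 2 at 21 h. The share left was 92.7% at 6 h, with an interval of 71.8 to 119.6% that includes no change, and 3.70% at 21 h (0.994 to 9.68%). Msra RNA had 8 and 12 reads with PBS, 6 and 10 at 6 h, and 0 and 1 at 21 h. The RNA interval was 50.8 to 213.0% at 6 h and 0.138 to 35.9% at 21 h, too wide for more than the direction of the later fall.

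Babam2 had the highest level per length of the 8 in both assays. Its footprints went from 390 and 350 with PBS to 208 and 154 at 6 h and 26 and 11 at 21 h, or from 59.5 ± 0.0844 RPKM to 35.7 ± 0.724 and 4.05 ± 2.19 (SD, n = 2). After scaling, 59.3% was left at 6 h (52.1 to 67.3%) and 6.70% at 21 h (4.68 to 9.33%). Babam2 RNA had 43 and 33 reads with PBS, 19 and 34 at 6 h, where the groups overlapped, and 0 and 0 at 21 h. Its RNA was at least 11.3-fold lower at 21 h, and 0 reads allow up to 5.70% of the PBS level, below the footprint share of 6.70% but not below the whole of its interval.

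Cmss1 kept the largest share of footprints at 21 h. It had 101 and 94 footprints with PBS, 70 and 58 at 6 h, and 7 and 16 at 21 h, the last 2 being 2.29 and 5.53 RPKM. The share left was 79.5% at 6 h (63.1 to 99.9%) and 15.8% at 21 h (9.79 to 24.4%). The 21 h interval, of counting error only, lies above those of Gmds, Tbc1d5, Msra, Babam2, Prkca and Atg10 but overlaps that of Arl15. Without replicate 2 at 21 h the log2 changes were -3.16 for Cmss1 and -3.34 for Babam2, so the gap from Babam2 rests mostly on that library. Cmss1 RNA had 14 and 22 reads with PBS, 9 and 5 at 6 h, and 0 and 0 at 21 h. That RNA fall was at least 5.16-fold, and 0 reads allow up to 12.4% of PBS.

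**Figure D2:**
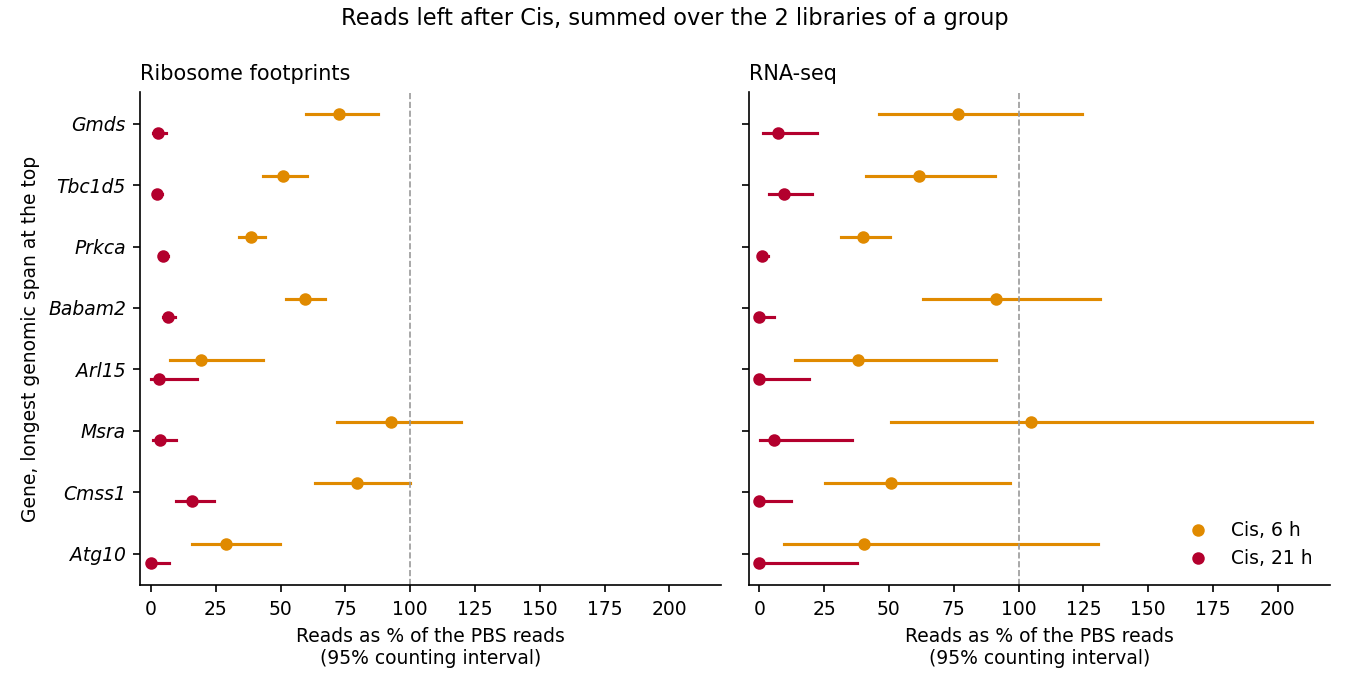
Reads left after Cis as a percentage of the PBS reads, scaled for depth, for footprints (left) and RNA-seq (right). Points are sums over 2 libraries, bars are exact 95% counting intervals and the dashed line is no change. In footprints the 6 h points run from 19.3% (Arl15) to 92.7% (Msra) and the 21 h points from 0% (Atg10) to 15.8% (Cmss1).

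Summed over the 8 genes, the footprints numbered 2922 with PBS, 1310 at 6 h and 112 at 21 h, and the RNA reads 610, 256 and 14. These sums are not scaled for depth, and Prkca gave 949 of the footprints and 308 of the RNA reads with PBS. After scaling, the median share left at 6 h was 55.2% in footprints and 56.3% in RNA. At 6 h, in increasing order of the footprint share left, the genes stood as Arl15, Atg10, Prkca, Tbc1d5, Babam2, Gmds, Cmss1 and Msra. In that order the interval of each gene overlapped that of the next, by least between Prkca (up to 44.2%) and Tbc1d5 (from 43.1%). The 6 h order did not follow span, since Gmds, the longest, kept 72.4% and Atg10, the shortest, 29.0%. By 21 h the median share left was 3.37% in footprints, and of the 7 genes at or under the 6.70% of Babam2, Tbc1d5 and Babam2 were the only pair whose intervals did not overlap.

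On the log2 scale the 8 genes had a median footprint change of -0.83 at 6 h (-2.03 for Arl15 to -0.10 for Msra), against -0.01 over all 10383 transcripts tested. At 21 h the median was -4.12 (-4.53 for Gmds to -2.60 for Cmss1), against 0.0063 over all. In RNA, 6 of the 8 passed the filter on low values, all but Atg10 and Arl15. Their median was -0.46 at 6 h and -3.21 at 21 h (-4.38 for Babam2 to -2.02 for Msra), against -0.006 and 0.017 over all 9443. At 21 h, with the pseudocount of 0.5, the 3 lowest log2 changes of all transcripts in footprints were those of Gmds, Atg10 and Tbc1d5. In RNA they were those of Babam2, Prkca and Cmss1. Counted from the lowest, Arl15 ranked 28 and Cmss1 92 in footprints, and Tbc1d5 79 and Msra 107 in RNA.

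With limma and Benjamini-Hochberg adjustment, 2 of the 8, Arl15 and Prkca, were called lower in footprints at 6 h, where 0.992% of all transcripts were called lower and 1.05% higher. At 21 h, all 8 were called lower in footprints, where 20.2% of all were lower and 18.9% higher. In RNA, 0 of 6 were called at 6 h, as for all transcripts (0% in each direction, with 1086 of 9443 at an unadjusted p under 0.05, and 229 called by voom on the reads), and 6 of 6 at 21 h, where 12.2% were lower and 11.6% higher. Both Cis libraries lay below both PBS libraries for 8 genes in footprints at 6 h (28.6% of all transcripts tested), 8 at 21 h (35%), 5 in RNA at 6 h (23%) and 8 at 21 h (30.6%). Since the genes were chosen from these contrasts, nothing is read from these counts. The 6 h calls of Arl15 and Prkca were lost when any PBS or 6 h library was left out (-2.06 to -2.001 for Arl15 and -1.43 to -1.21 for Prkca), while the 21 h calls of all members tested held under each alternative run.

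The lowest values outside the list were close to those inside, and in footprints at 21 h some were lower than those of members. In footprints at 21 h the next lowest were Camk1d (-4.36, the fourth lowest of all), Mpp7 (-4.32), Fam172a (-4.10) and Msi2 (-4.01), which span 378.9 to 457.6 kb apart from Mpp7 at 278.9 kb. In RNA at 21 h they were Exoc6b (-3.60), Msi2 (-3.44), Snd1 (-3.44), Fto (-3.36) and Lpp (-3.33). Camk1d had 105 and 86 footprints with PBS and 4 and 0 at 21 h, and Exoc6b 98 and 80 RNA reads with PBS and 0 and 1 at 21 h. By the distance between the 4 log2 changes and the median of the members, over 9295 transcripts tested in both assays, the genes most like the 8 were Snd1 (distance 0.497), Msi2, Lpp, Fto and Exoc4 (0.627). These 5 span 355.1 to 724.9 kb.

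The rest of the long genes were then set beside the members. Of 153 other transcripts tested in footprints whose span is at least that of Atg10, 134 were called lower at 21 h and 2 higher, with a median change of -2.28 and a range of -4.36 to 1.03. In RNA, 94 of 120 were lower and 2 higher, with a median of -1.88. With the members left out, the median footprint change at 21 h was 0.20 for 2588 genes under 10 kb, 0.17 from 10 to 30 kb, -0.17 from 30 to 100 kb, -0.999 from 100 to 300 kb and -2.30 for 143 genes of 300 kb or more. The share called lower over the same bins was 8.00, 7.77, 25.4, 73.0 and 86.7%. In RNA at 21 h the medians were 0.13, 0.16, -0.08, -0.79 and -1.88. At 6 h the footprint medians were 0.11, 0.07, -0.09, -0.42 and -0.78. Across genes, which share libraries and are not independent, Spearman's rho of span and change was -0.435 in footprints at 6 h, -0.491 at 21 h, -0.334 in RNA at 6 h and -0.373 at 21 h (9389 to 10328 genes). At 21 h, 7 members lay below the lower quartile of the longest bin in footprints (-3.04), and Cmss1, at -2.60, lay above it.

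**Figure D3:**
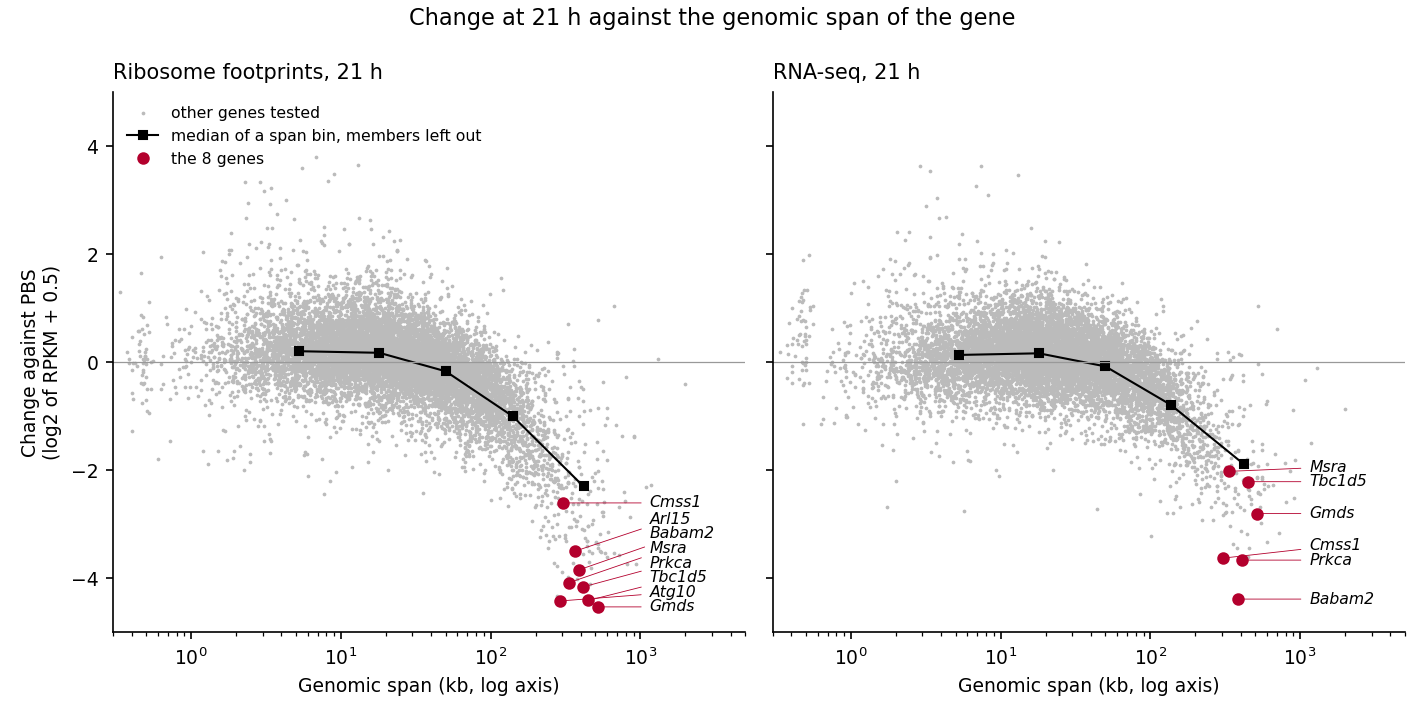
Change at 21 h on the log2 scale against genomic span (log axis), footprints left and RNA-seq right. Grey points are the other genes tested and black squares the medians of 5 span bins without the members. Red points are the members tested, 8 in footprints and 6 in RNA-seq, which sit at or below the end of the black line. The median of the longest bin is -2.30 in footprints and -1.88 in RNA.

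Long span alone did not go with a fall in every gene. The 2 long genes called higher in footprints at 21 h were Pde4b and Frmd4b. Pde4b, a phosphodiesterase that degrades cyclic AMP, spans 519.9 kb, as much as Gmds. It had 126 and 118 footprints with PBS and 152 and 167 at 21 h, a log2 change of 0.78 (SE 0.16, adjusted p = 0.00503 from limma). Its RNA was also higher, by 1.04 (SE 0.27, limma adjusted p = 0.0216). Frmd4b, a FERM domain scaffold, spans 330.8 kb and rose by 0.70 in footprints (SE 0.22, adjusted p = 0.0319 from limma), with 0.19 in RNA, which did not pass. The footprint call of Frmd4b was lost without either PBS library and without replicate 2 at 21 h (0.55), and the RNA call of Pde4b without any of the 4 libraries compared (0.98 to 1.10). The start sites of these genes were looked up after their values were seen. The promoter table lists 4 starts for Pde4b, 17.4 to 185.7 kb from the end of the gene, and 3 for Frmd4b, 172.4 to 330.8 kb from it. For the 7 members listed there, every start lay 288.6 to 519.0 kb from the end. Starts of the other long genes, most of which fell, were not looked up, so how common inner starts are among them is not known. Which starts are in use in KPC cells was not tested.

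The genes beside the members were compared with them. For each member, the nearest tested gene on either side and any tested gene within its span were taken, 17 in all. In footprints at 21 h, 4 of the 17 were called lower and 3 higher, near the shares of 20.2% and 18.9% over all transcripts. The 4 that fell were Plcl2, 44.6 kb from Tbc1d5 (-1.77, SE 0.19), Ssbp2 beside Atg10 (-1.80, SE 0.27), Ndufs4 beside Arl15 (-1.54, SE 0.09) and Helz beside Prkca (-0.87, SE 0.20). Each of these 4 spans 100.3 to 245.9 kb, and of the 6 neighbours of 100 kb or more 4 fell and 0 rose, while of the 11 shorter ones 0 fell and 3 rose. The edge of 100 kb lies just under Ndufs4. Among all other genes of 100 to 300 kb, 73.0% were called lower and 0.308% higher. Under 10 kb, from 10 to 30 kb and from 30 to 100 kb, 8.00, 7.77 and 25.4% were lower and 28.2, 26.9 and 7.95% higher. The split by length is therefore not read as particular to the neighbours. The 3 that rose were Wrnip1 beside Gmds (0.56, SE 0.17), Snx18 beside Arl15 (0.54, SE 0.14) and Rps23, a ribosomal protein gene of 1.61 kb that lies 10.6 kb from Atg10 (0.32, SE 0.09). Thus in footprints Atg10, with 0 reads at 21 h, stood between Rps23, which rose, and Ssbp2, which fell. The RNA of Rps23 was at -0.07 at 21 h and did not pass, and that of Ssbp2 was too low to enter the fit. In RNA at 21 h, 15 neighbours were tested, and Plcl2 (-1.29), Ndufs4 (-0.76) and Helz (-0.64) fell while Fosl2 beside Babam2 rose by 0.68. At 6 h, only Plcl2 (-1.08) and Ndufs4 (-0.49) of the 17 were called in footprints and 0 of 15 in RNA (4 at an unadjusted p under 0.05, and 0 by voom). Calls were from limma with adjustment over all transcripts. In footprints at 21 h those of Helz, Wrnip1, Snx18 and Rps23 were lost without PBS replicate 1 (-0.87, 0.58, 0.49 and 0.30), and those of Helz, Wrnip1 and Snx18 also without PBS replicate 2 (-0.87, 0.55 and 0.59). Wrnip1 (0.43) and Rps23 (0.27) did not pass without replicate 2 at 21 h, and Snx18 (0.46) did not pass without replicate 1. The 6 h calls of Plcl2 and Ndufs4 were lost without any PBS or 6 h library (-1.21 to -0.95 and -0.54 to -0.43). In RNA, Helz (-0.69 to -0.59), Fosl2 (0.51 to 0.84) and Ndufs4 (-0.94 to -0.58) were also lost without single libraries. No neighbour fell as far as the member beside it in footprints at 21 h, which follows largely from choosing the members for their steep falls.

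A gene that overlaps a member was also measured. Filip1l, named as filamin A interacting protein 1 like, lies on the plus strand within the span of Cmss1, which lies on the minus strand. It had 511 and 472 footprints with PBS, 421 and 330 at 6 h, and 356 and 318 at 21 h, and its RNA numbered 86 and 102, 40 and 48, and 72 and 81 reads. The 21 h change was -0.12 in footprints (SE 0.12, adjusted p = 0.447 from limma) and -0.10 in RNA (SE 0.19, adjusted p = 0.755 from limma), against -2.60 and -3.63 for Cmss1. Filip1l spans 219.5 kb, but the promoter table lists 2 starts for it, and the inner start lies 23.6 kb from the end of the gene. Which start the reads came from was not tested, and since strand use in counting is not given in the sources used here, reads from any exon the genes share cannot be told apart.

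**Figure D4:**
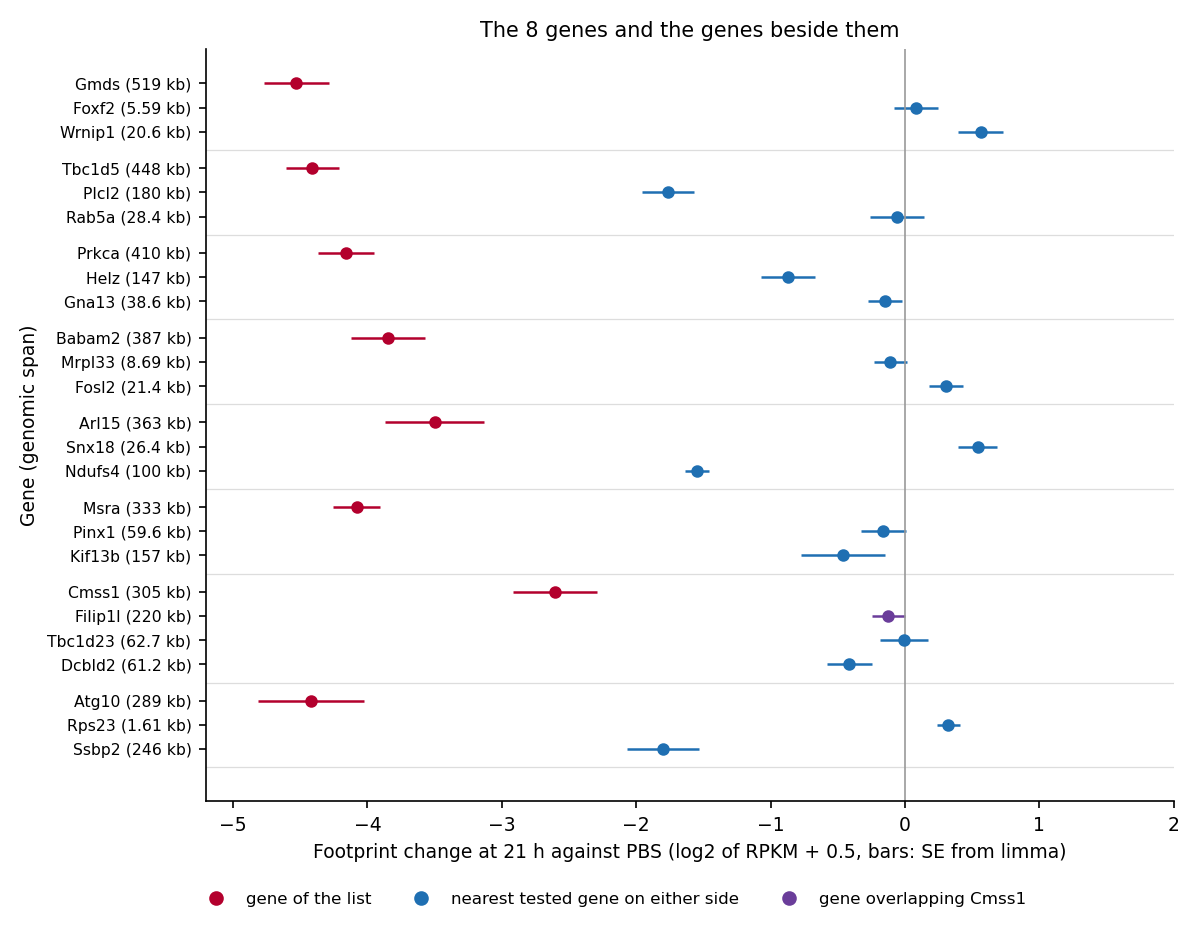
Footprint change at 21 h (log2, bars are the SE from limma) of the 8 genes in red, of the nearest tested gene on either side in blue and of Filip1l, which overlaps Cmss1, in purple, with the span of each. Each red point lies to the left of the points grouped with it, from -4.53 for Gmds to -2.60 for Cmss1. The 8 genes were chosen for their steep falls, so nothing is read from this order.

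Genes that work with the members were listed by pathway or family, without regard to how they moved. Of 74 genes in 7 lists, 71 were in the files. In footprints at 21 h 63 were tested, of which 12 were higher and 7 lower (limma, adjusted over all transcripts), beside 18.9% and 20.2% of all transcripts. Their median change was 0.0064, as against 0.0063 over all. In RNA at 21 h, 6 of 61 were higher and 5 lower, beside 11.6% and 12.2% of all, and at 6 h 0 were called by limma in either assay, with 16 and 5 at an unadjusted p under 0.05 and 6 and 0 called by voom.

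The GDP-fucose pathway around Gmds had 1 of 10 genes lower and 0 higher in footprints at 21 h. That gene was Fut8, which adds the core fucose to N-glycans and spans 238.6 kb, with 87 and 60 footprints with PBS and 8 and 4 at 21 h (-2.68 in footprints and -2.25 in RNA). In the conjugation system of Atg10, 1 of 8 genes was lower and 3 higher. The lower gene was Atg7, the enzyme that activates ATG12 before ATG10 takes it over, which spans 217.5 kb. Atg7 had 111 and 98 footprints with PBS and 6 and 5 at 21 h (-3.10, and -2.42 in RNA). Among kinases related to Prkca, 1 of 5 was lower, Prkce, at 490.1 kb, with 37 and 20 footprints with PBS and 3 and 0 at 21 h (-2.21). These 3 were the partner genes with the largest falls in footprints, and their spans are the longest among the tested genes of their lists.

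Of the BRCA1-A and BRISC genes, to which Babam2 belongs, 4 of 8 were higher and 1, Brcc3 (-0.40), lower in footprints. Brca1, the ubiquitin ligase that the complex is named for, had 211 and 185 footprints with PBS and 281 and 316 at 21 h (0.97, SE 0.18), and its RNA rose by 1.12. Abraxas2, the scaffold of BRISC, rose by 0.88 in RNA (0.76 to 1.01 with a library left out, and not past the threshold without any of the 4 libraries compared). The RNA call of Brca1 was lost without PBS replicate 1 (0.94) and without replicate 2 at 21 h (1.02). For Arl15, 3 of 14 ARL and CNNM genes were higher and 1 lower, with Arl4a at 0.75 and Arl5b at 0.57 in footprints, Arl5b RNA at 1.53 and Arl3 RNA at -1.14 (-1.53 to -0.75 with a library left out, and not past the threshold without PBS replicate 2). The lower ARL gene in footprints was Arl13b (-1.10). Around Tbc1d5, 2 of 12 retromer, sorting nexin and Rab7 genes were lower, Snx1 (-0.36) and Snx5 (-0.23), and 0 higher, and the list's median change was -0.04. For Msra, 2 of 6 genes of methionine sulfoxide and thioredoxin reduction were higher, Txnrd1 (0.42) and Txn1 (0.29), and 0 lower. Arl13b, Brcc3, Snx1, Snx5, Txnrd1 and Txn1 were named after their values were seen, because they were few. In none of the 7 lists did a partner tested in footprints at 21 h fall as far as its member. Since the members were chosen for their steep falls, that follows largely from the choice, and nothing is read from it.

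**Figure D5:**
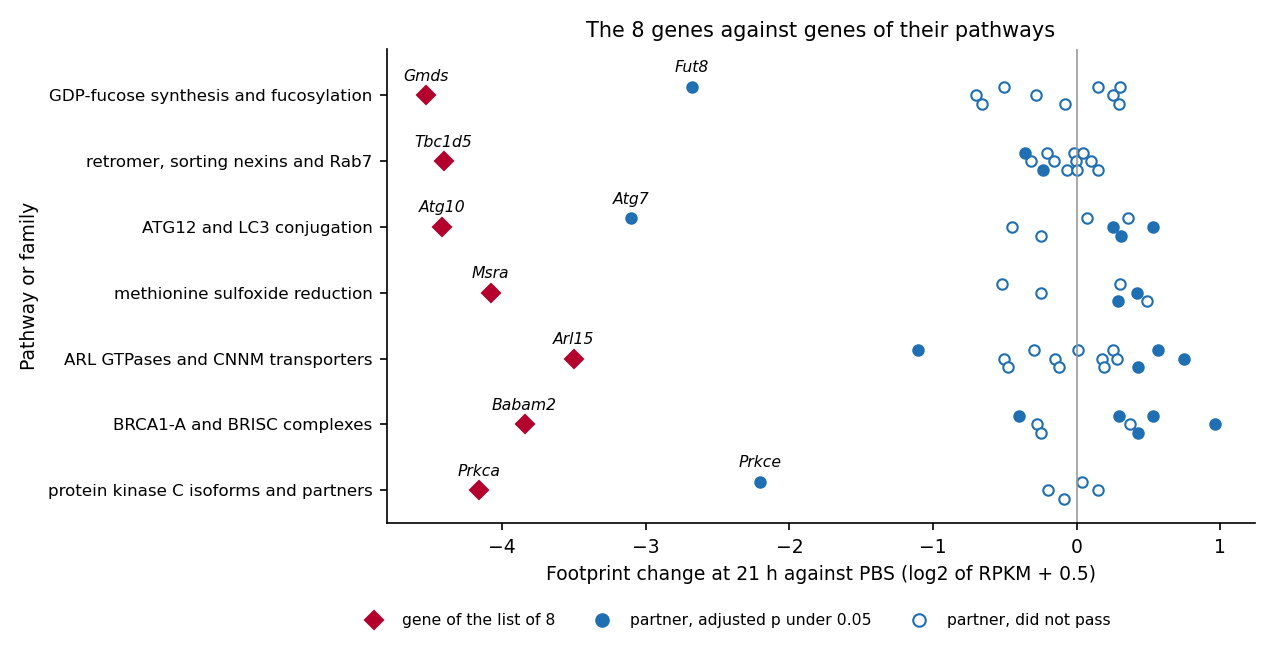
Footprint change at 21 h (log2) of the genes in 7 pathway or family lists, filled where the adjusted p was under 0.05, with the member of each list as a red diamond. The partners lie mostly within 1 of 0, while the members, chosen for their steep falls, lie between -4.53 and -3.50. Atg7, Fut8 and Prkce are named as the partners below -2.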

How the data were processed

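Ribosome profiling and RNA-seq libraries were analysed from KPC cells with PBS or 20 μM Cis, with 2 libraries per group and 12 in all. They were grouped by the sample labels, which call the control cells untreated. PBS and the dose come from the methods of the study. For each library the authors deposited RPKM of 1 representative transcript per gene, and replicates were not pooled. Footprints were divided by coding length, RNA reads by transcript length and both by the library total. The submitters' processing notes name cutadapt, STAR and GRCm39, without versions, and the counting step is not given in the sources used here. Transcripts not listed were set to 0.

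Whole reads were recovered from the RPKM values (100% within 0.05 of a whole number), and gave the depths. The libraries of an assay were brought to a common scale with median-of-ratios factors. Those transcripts that reached a mean of 1 scaled RPKM (10383 in footprints and 9443 in RNA) were fitted as log2(RPKM + 0.5) with limma 3.58.1 in R 4.3.3 (lmFit, eBayes with trend), the 3 groups of an assay in a single model, two-sided, with Benjamini-Hochberg adjustment over all transcripts and a threshold of 0.05. TE was not tested. With 2 libraries against 2 an exact permutation test could not pass, so p-values rest on the model of the spread. Shares of PBS are sums of reads over 2 libraries, divided by scaled depth, with exact binomial 95% intervals. The floor was 3 reads per library. Reads were counted without molecular identifiers, so intervals and floors cover counting error only.

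The members, the partner lists, the neighbour rule and the bins were chosen with earlier results of these data known. Named genes are the members, the 3 partner genes with the largest rise and fall among those past the threshold in each comparison (0 at 6 h), all neighbours, the 5 genes most like the members, the 5 steepest falls outside them at 21 h in each assay (1 of these, in footprints, is not reported here) and the long genes called higher in footprints at 21 h, with others said to be named later. Spans were matched to RefSeq genes (GRCm38.p6) by symbol for 15660 of 15803 transcripts, 17 through a synonym, and since the files use GRCm39 no gene coordinates are given. The replicate numbers did not pair the libraries, since deviations from the group means correlated by -0.0143 to 0.0215 between groups. Replicates correlated with r = 0.984 to 0.989 in footprints and 0.966 to 0.975 in RNA across transcripts, and their chi-square per degree of freedom was 1.45 to 3.97, above the 1 that sampling alone gives. As alternatives, the pseudocount was set to 0.1 or 1, the filter was dropped or raised to 5, and the fit was run with no scaling, no variance trend, a replicate block, voom on the recovered reads and each library left out. Python 3.11.15, pandas 2.3.3, numpy 2.4.6, scipy 1.17.1 and matplotlib 3.10.9 were used.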

Additional observations from a re-analysis of the deposited data

Results flagged for a closer look

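Among the genes named by rule beside the members, 5 lay on opposite sides of both PBS libraries at 6 h and 21 h in each Cis library of an assay, and the difference between the times was not tested. In footprints Brca1 was at -0.10 on the log2 scale at 6 h and 0.97 at 21 h, Pde4b at -0.12 and 0.78, and Rps23 at -0.14 and 0.32. In RNA Ndufs4 was at 0.39 and -0.76 and Pinx1, beside Msra, at 0.53 and -0.53. The 6 h values did not pass the adjusted threshold in limma, and the PBS libraries are shared by both times. None of the 8 members showed this pattern in either assay. Since they were chosen for their falls in these contrasts, nothing is read from that.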

How the results depend on the processing

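The 21 h falls of the members kept their direction and call under every alternative run, in both assays, for the members tested. Their sizes near 0 reads depended on the pseudocount. The median footprint change at 21 h was -4.78 with a pseudocount of 0.1, -3.66 with 1 and -4.43 with voom, and the RNA median -4.77, -2.46 and -4.51, or -2.51 without a filter and -4.38 with a mean of at least 5. That filter gave -0.62 in footprints and -0.17 in RNA at 6 h, over fewer members. With a library left out, the member medians ran from -0.89 to -0.78 and -4.26 to -3.98 in footprints and from -0.63 to -0.38 and -3.55 to -2.87 in RNA. RNA depth limits the 6 h values, and Msra (-0.16 to 0.25, and -0.013 without scaling) and Babam2 (-0.48 to 0.14) changed sign there.

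Calls over all transcripts in footprints at 6 h were the least stable. They numbered 17 without a filter, 344 with a mean of at least 5, 0 without the variance trend in limma (2004 at an unadjusted p under 0.05) and 1276 with voom, and 0 to 381 with a library left out. With the replicate block they numbered 37, and the 6 h calls of Arl15, Prkca, Plcl2, Ndufs4 and Fto were lost, as was the RNA call of Helz at 21 h. The block changed no other call of a named gene. With a library left out, footprint calls at 21 h ranged from 2828 to 3749 and RNA calls from 0 to 1 at 6 h and from 1083 to 2310 at 21 h. With voom, RNA calls at 6 h were 229. Partner calls in footprints were 1 with a mean of at least 5 and 6 with voom at 6 h, 12 without the trend and 11 to 15 with a library left out at 21 h, and in RNA at 21 h 17 with voom and 6 to 12 with a library left out. Neighbour calls in footprints at 6 h were 0 without a filter, without the trend and with the block, 5 with voom and 0 to 2 with a library left out. At 21 h they were 3 to 7 with a library left out, and in RNA 2 without the trend and 1 to 4 with a library left out. The cause of these shifts was not tested.

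Genes other than members also changed sign, and with all libraries none of these changes passed the adjusted threshold in limma. The largest of them was 0.39, for Abraxas2 in RNA at 6 h. With a library left out, footprints at 6 h gave Abraxas2 -0.13 to 0.046, Foxf2 -0.023 to 0.33, Mrpl33 -0.29 to 0.068 and Rab5a -0.45 to 0.16, and at 21 h Gna13 -0.30 to 0.0033, Rab5a -0.36 to 0.25 and Tbc1d23 -0.23 to 0.22 (0.027 without scaling). RNA at 6 h gave Abraxas2 -0.013 to 0.80, Arl3 -0.053 to 0.33, Brca1 -0.031 to 0.32, Dcbld2 -0.15 to 0.19 (-0.042 without scaling), Fam172a -0.17 to 0.41, Fosl2 -0.047 to 0.27 and Foxf2 -0.27 to 0.20. It also gave Frmd4b -0.21 to 0.22 (-0.052 without scaling, -0.00077 with a pseudocount of 1), Fut8 -0.18 to 0.20 (-0.049 without scaling), Mrpl33 -0.44 to 0.34 (0.0061 with voom) and Pde4b -0.30 to 0.24. RNA at 21 h gave Dcbld2 -0.67 to 0.036, Filip1l -0.21 to 0.024, Frmd4b -0.025 to 0.40, Gna13 -0.13 to 0.0068 (0.021 without scaling), Mrpl33 -0.12 to 0.67, Rps23 -0.14 to 0.0023 (0.017 without scaling), Snx18 -0.38 to 0.070 and Tbc1d23 -0.58 to 0.21.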
